A study of Mus musculus with 8 samples.

Results

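The subunits of voltage-gated calcium channels were followed in the endocrine cells of mouse pancreatic islets. The 10 genes Cacna1a, Cacna1c, Cacna1d, Cacna1e, Cacna1h, Cacnb2, Cacnb3, Cacna2d1, Cacna2d2 and Cacna2d3 were taken by name, and all 10 were among the 17362 genes of the deposited table. Voltage-gated calcium channels open when the membrane depolarises and let calcium into the cell. In islet endocrine cells this entry triggers the release of hormone granules, and in beta cells it links the closure of ATP-sensitive potassium channels by glucose metabolism to insulin secretion. A channel is built around a pore-forming alpha1 subunit, which also holds the voltage sensor. A cytoplasmic beta subunit and an extracellular alpha2delta subunit assist its delivery to the membrane and set its gating.

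The values come from single nucleus RNA-seq of cultured islets of wild type (WT) mice and of mice with the whole-body knock-in Med14 S983A (mutant), which replaces a serine of a Mediator subunit by alanine. Islets of each genotype were untreated (CON), exposed to forskolin (FSK), a direct activator of adenylyl cyclase, for 16 h, or exposed to Exendin-4 (Ex-4), a GLP-1 receptor agonist, at 10 nM for 16 h. For FSK on islets the sources used here give no dose. The table holds 1 pooled value for each of 6 conditions in each of 9 cell types, so there were no replicates and no test, and a condition cannot be told apart from its islet preparation or its barcoding well.

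Levels are given as counts per 10000 counts of a column (CP10K), with 95% Poisson intervals in brackets that cover counting error only. A pooled value does not show whether fewer nuclei held a transcript or each nucleus held less of it. The 6 columns of a cell type held 1915006 to 3094377 counts in beta cells, 269394 to 810127 in alpha cells, 362410 to 631433 in delta cells and 38625 to 127727 in PP cells, so PP values are the least precise. The labelled cell types held their own markers. The 12 beta markers summed to 66.9 to 106 CP10K over the beta columns and to at most 37.9 in any alpha, delta or PP column. The 8 alpha markers summed to 49.0 to 140 in alpha columns and at most 17.1 elsewhere, the 4 PP markers to 14.5 to 25.7 in PP columns and at most 6.62 elsewhere, and the 5 delta markers to 4.50 to 9.75 in delta columns and at most 1.19 elsewhere. Of the delta list, 5 genes were in the table.

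Beta and alpha cells shared their main subunits, Cacna1a, Cacna1c, Cacna1d, Cacnb2 and Cacna2d1, and delta cells held further ones. Cacna2d3 was a subunit of delta and PP cells, in which it reached 20.6 CP10K, and was at most 0.193 CP10K in beta cells. In delta cells it ran from 2.99 to 20.6 CP10K over the conditions. Cacna1h and Cacna2d2 were also highest in delta cells. In beta cells Cacna2d1, Cacnb2 and Cacna1c were lower in mutant CON than in WT CON, and Cacna2d1 and Cacnb2 were lower after Ex-4 in WT.

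**Figure D1:**
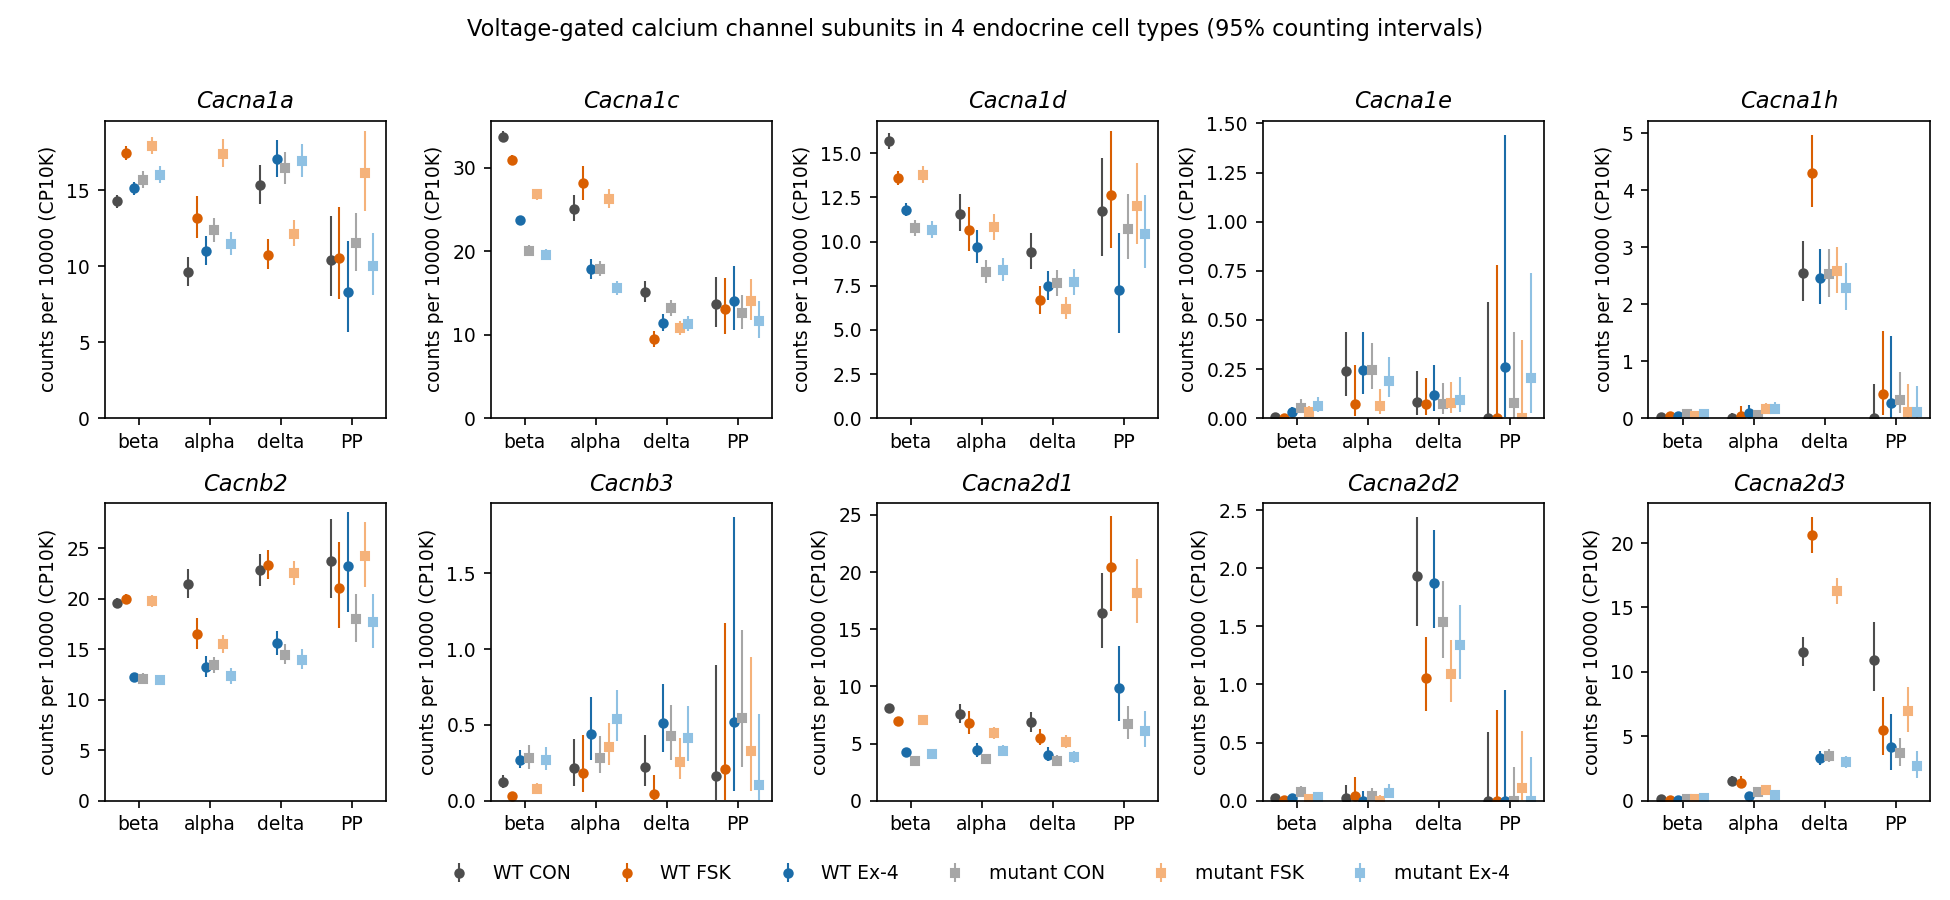
Level of each of the 10 subunits in CP10K (vertical axes, each starting at 0, with their own range) in beta, alpha, delta and PP cells, with 1 point for each of the 6 conditions and bars for the 95% Poisson interval of its count. Cacna1h and Cacna2d2 stand above 1 CP10K only in the delta columns, and Cacna2d3 reaches 20.6 CP10K in delta cells after FSK in WT.

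Among the alpha1 subunits, Cacna1c and Cacna1d encode the pores of L-type channels, the main route of calcium entry in mouse beta cells. Cacna1c lies on the minus strand of chromosome 6 at 118564201 to 119173851 (GRCm39) and overlaps the coding gene Dcp1b. In beta cells Cacna1c was 33.7 CP10K (33.1 to 34.4) for WT CON, 30.9 (30.3 to 31.5) for WT FSK, 23.7 (23.2 to 24.3) for WT Ex-4, 20.1 (19.4 to 20.7) for mutant CON, 26.8 (26.2 to 27.5) for mutant FSK and 19.6 (19.0 to 20.2) for mutant Ex-4. WT CON was the highest, and both Ex-4 columns and mutant CON the lowest. In delta cells Cacna1c was between 9.45 and 15.1 CP10K. Its interval lay below the beta interval of the same condition in all 6 conditions, and the ranges of the 2 cell types did not overlap. PP cells, at 11.6 to 14.1 CP10K, were likewise below beta cells in all 6 conditions. Alpha cells, at 15.6 to 28.1 CP10K, lay between them.

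Cacna1d (chromosome 14, 29761896 to 30213412, minus strand, GRCm39) overlaps the coding genes Chdh and Dcp1a. Its beta cell level was 15.7 CP10K (15.2 to 16.1) for WT CON, 13.6 (13.2 to 14.0) for WT FSK, 11.8 (11.4 to 12.2) for WT Ex-4, 10.8 (10.3 to 11.2) for mutant CON, 13.8 (13.3 to 14.3) for mutant FSK and 10.7 (10.2 to 11.1) for mutant Ex-4. The order of conditions was close to that of Cacna1c. Over the 18 beta, alpha and delta columns the log values of the 2 L-type genes had a Pearson correlation of 0.943, a description of columns that share conditions and depth. Beta cells had more Cacna1d than alpha cells (8.29 to 11.6 CP10K) and delta cells (6.19 to 9.41 CP10K) in all 6 conditions.

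Cacna1a, the pore of P/Q-type channels, spans 85065224 to 85367997 of the plus strand of chromosome 8 (GRCm39). In beta cells it was 14.3 CP10K (13.9 to 14.7) for WT CON, 17.4 (17.0 to 17.9) for WT FSK, 15.1 (14.7 to 15.6) for WT Ex-4, 15.7 (15.1 to 16.3) for mutant CON, 17.9 (17.4 to 18.5) for mutant FSK and 16.0 (15.5 to 16.6) for mutant Ex-4. Both FSK columns were the highest, with intervals that did not reach those of the other 4. In delta cells it was 15.3 CP10K (14.1 to 16.7) for WT CON, 10.8 (9.82 to 11.8) for WT FSK, 17.1 (15.9 to 18.3) for WT Ex-4, 16.5 (15.4 to 17.5) for mutant CON, 12.2 (11.3 to 13.1) for mutant FSK and 16.9 (15.9 to 18.1) for mutant Ex-4. Here both FSK columns were the lowest, the reverse of beta cells. Alpha cells went with beta cells, at 9.64 in WT CON against 13.2 in WT FSK and 12.4 in mutant CON against 17.4 in mutant FSK.

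Cacna1h encodes a T-type pore, which opens at more negative voltages than the L-type and P/Q-type. It lies on the minus strand of chromosome 17 at 25593259 to 25652764 (GRCm39). In delta cells it was 2.54 CP10K (2.05 to 3.11) for WT CON, 4.30 (3.70 to 4.97) for WT FSK, 2.45 (2.01 to 2.97) for WT Ex-4, 2.52 (2.13 to 2.97) for mutant CON, 2.58 (2.20 to 3.01) for mutant FSK and 2.28 (1.90 to 2.71) for mutant Ex-4. WT FSK stood above the other 5 delta columns. No beta column exceeded 0.0783 CP10K, no alpha column 0.164 and no PP column 0.422. Macrophages, which serve here as a gauge of stray RNA, held 0.164 CP10K (0.0338 to 0.479) on 3 counts over all conditions. The beta and alpha levels were thus no higher than that background.

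Cacna1e, the R-type pore, was near the limit of detection everywhere, with 41 counts in all beta columns together (0.0269 CP10K), 63 in alpha (0.178), 25 in delta (0.0841) and 4 in PP cells (0.0858). Its alpha level was 2.09 to 35.9 times the beta level of the same condition, and in 3 of 6 conditions the alpha interval lay above the beta interval. Macrophage columns held 0 counts, with an upper 95% bound of 0.202 CP10K, so their depth hardly separates the alpha signal from background.

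Levels of different genes were compared only per length, since long genes collect more nuclear reads. Per 100 kb of gene span and over all 6 conditions, the order in beta cells was Cacna1a at 5.3 CP10K, Cacna1c at 4.37, Cacnb2 at 4.23, Cacna1d at 2.87, Cacna2d1 at 1.33 and Cacnb3 at 1.2, with the other 4 at 0.0761 or less. This order varied with the condition. In WT CON Cacna1c (5.53) stood above Cacna1a (4.72), and Cacnb3 stood above Cacna2d1 in both Ex-4 columns and in mutant CON (2.05 against 0.788). Cacna1c and Cacnb2 had overlapping intervals in 4 of 6 conditions, and are not separated. In delta cells Cacna1a (4.88), Cacnb2 (4.81) and Cacna1h (4.6) led on this scale, and their order varied with the condition. Cacna1h accounted for 29.5 to 52.3% of the summed alpha1 level per kb of span in delta cells, and for 0.284 to 1.2% in beta cells. Per kb of merged exon Cacna1c came first in beta cells (1.19 CP10K), and Cacna1h was sixth of the 10 in delta cells (0.250), so these orders depend on the length used.

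**Figure D2:**
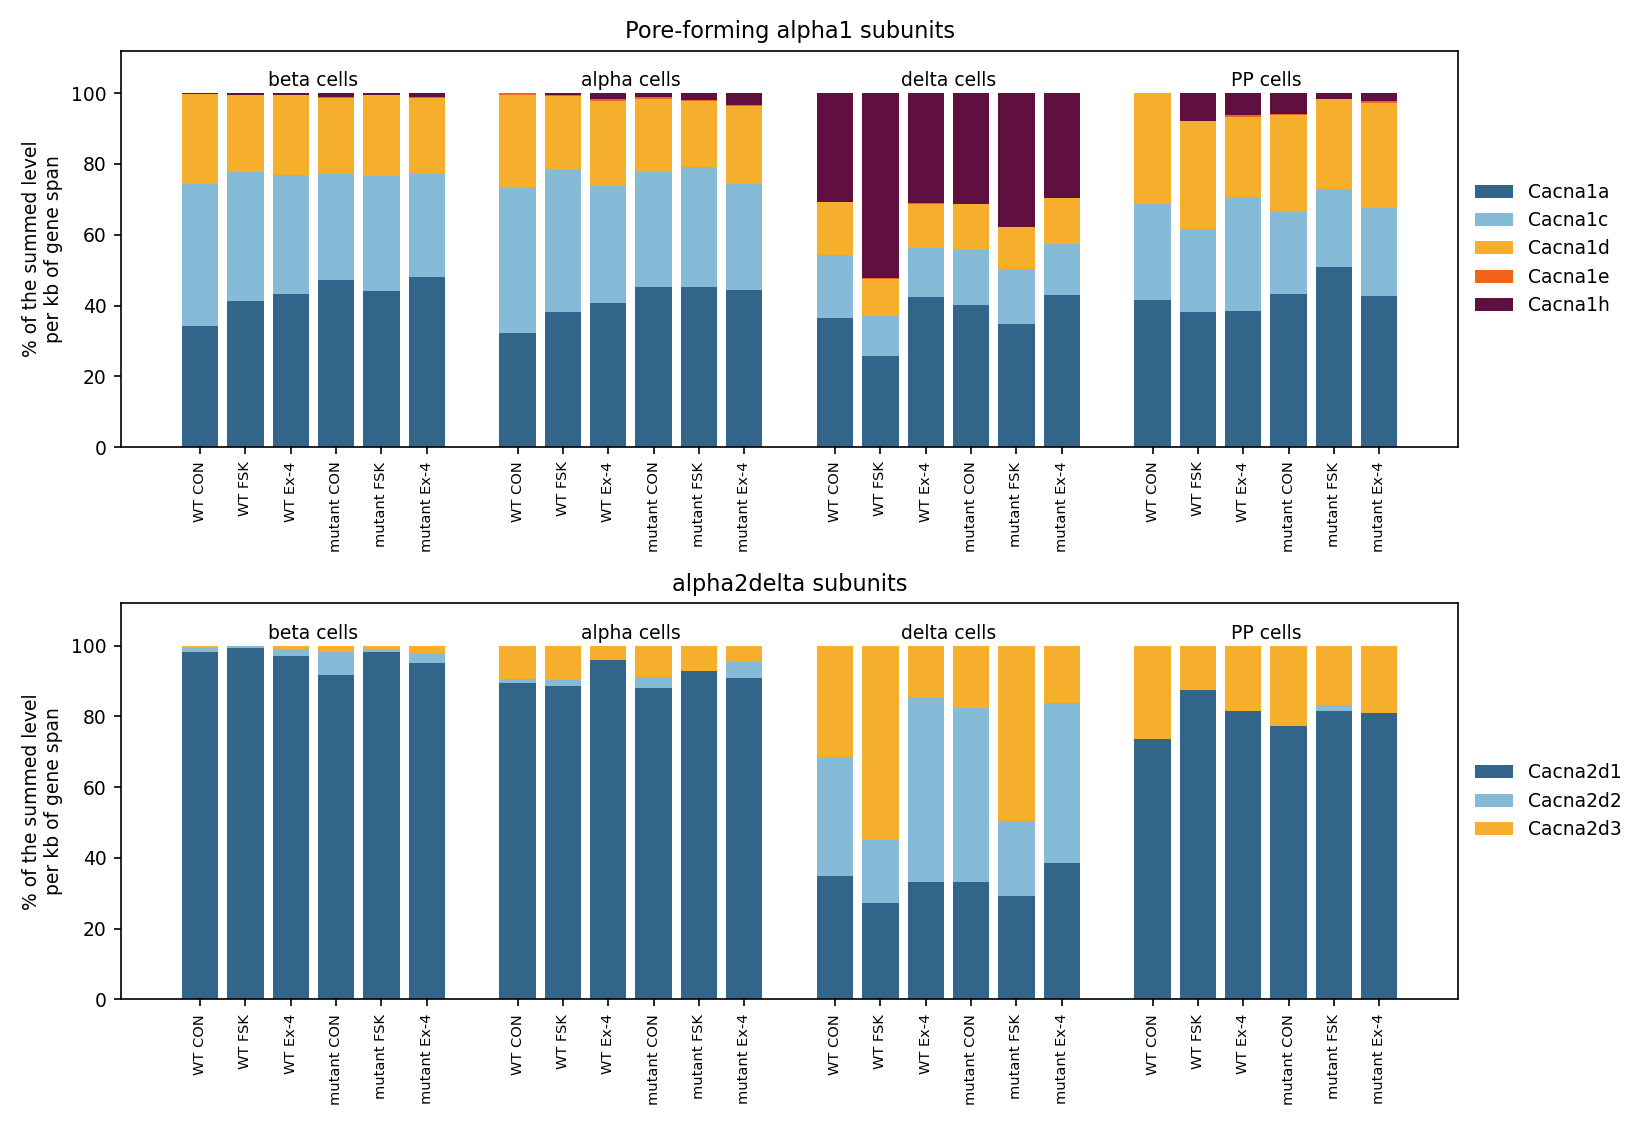
Make-up of the pore-forming alpha1 family (upper panel) and of the alpha2delta family (lower panel) in each condition and endocrine cell type, as the percentage each gene held of the family's summed level per kb of gene span (vertical axis). Cacna1h holds 29.5 to 52.3% of the alpha1 level in delta cells, and Cacna2d1 holds 91.6 to 99.3% of the alpha2delta level in beta cells.

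The beta subunits are cytoplasmic partners that bind the alpha1 subunit. Cacnb2 (chromosome 2, 14607899 to 14994127, plus strand, GRCm39) was 19.6 CP10K (19.1 to 20.1) for WT CON beta cells, 20.0 (19.5 to 20.5) for WT FSK, 12.2 (11.8 to 12.6) for WT Ex-4, 12.1 (11.6 to 12.6) for mutant CON, 19.8 (19.2 to 20.4) for mutant FSK and 12 (11.5 to 12.5) for mutant Ex-4. The 6 values formed 2 groups, WT CON with both FSK columns and mutant CON with both Ex-4 columns, and within each group all intervals overlapped. Delta cells held 22.8, 23.4, 15.6, 14.5, 22.5 and 14.0 CP10K in the same order of conditions, with the same split. In alpha cells WT CON (21.5 CP10K, 20.1 to 23.0) stood above all others, which ran from 12.4 to 16.5.

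Cacnb3, a further beta subunit, is a short gene (chromosome 15, 98528721 to 98542417, plus strand, GRCm39) and rested on few counts. In beta cells it was 0.123 CP10K (0.0865 to 0.169) for WT CON on 37 counts, 0.0323 (0.0155 to 0.0594) for WT FSK, 0.268 (0.213 to 0.334) for WT Ex-4, 0.280 (0.211 to 0.366) for mutant CON, 0.0738 (0.0430 to 0.118) for mutant FSK and 0.272 (0.203 to 0.356) for mutant Ex-4. It was thus lowest in both FSK columns and highest in both Ex-4 columns and mutant CON, opposite to Cacnb2. The FSK to CON ratio of CP10K was 0.263 in both genotypes (0.117 to 0.540 in WT, 0.143 to 0.461 in the mutant). The Ex-4 to CON ratio was 2.18 (1.46 to 3.32) in WT and 0.968 (0.649 to 1.44) in the mutant. The macrophage columns held 6 counts, 5 of them in WT FSK, too few to gauge the background, and free RNA in these values was not tested.

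The alpha2delta subunits are anchored on the outer face of the membrane and promote the delivery of channels to it. Cacna2d1 (chromosome 5, 16139372 to 16579509, plus strand, GRCm39) was the alpha2delta gene of beta and alpha cells. In beta cells it was 8.09 CP10K (7.78 to 8.42) for WT CON, 6.93 (6.64 to 7.23) for WT FSK, 4.28 (4.05 to 4.52) for WT Ex-4, 3.47 (3.21 to 3.74) for mutant CON, 7.07 (6.73 to 7.42) for mutant FSK and 4.06 (3.78 to 4.35) for mutant Ex-4. Mutant CON was the lowest column and the 2 FSK columns had overlapping intervals. Alpha cells, at 3.62 to 7.61 CP10K, and delta cells, at 3.51 to 6.87, overlapped the range of beta cells. PP cells had more Cacna2d1 than beta and delta cells in all 6 conditions, at 16.4 CP10K in WT CON, 20.5 in WT FSK, 9.84 in WT Ex-4, 6.73 in mutant CON, 18.2 in mutant FSK and 6.13 in mutant Ex-4, or 1.51 to 2.95 times the beta level.

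Cacna2d3 (chromosome 14, 28626892 to 29444600, minus strand, GRCm39) separated the cell types as well as the conditions. In delta cells it was 11.5 CP10K (10.5 to 12.7) for WT CON, 20.6 (19.3 to 22) for WT FSK, 3.29 (2.77 to 3.88) for WT Ex-4, 3.48 (3.01 to 4.0) for mutant CON, 16.2 (15.3 to 17.3) for mutant FSK and 2.99 (2.55 to 3.48) for mutant Ex-4. Both FSK columns were highest, with WT FSK above mutant FSK and their intervals apart. WT CON lay between, and both Ex-4 columns with mutant CON were lowest and overlapping. In PP cells it was 10.9 CP10K (8.49 to 13.9) for WT CON, 5.48 (3.58 to 8.03) for WT FSK, 4.14 (2.37 to 6.73) for WT Ex-4, 3.68 (2.70 to 4.89) for mutant CON, 6.93 (5.34 to 8.85) for mutant FSK and 2.66 (1.74 to 3.89) for mutant Ex-4, so the WT FSK value lay below WT CON rather than above it. Alpha cells ran from 0.355 to 1.5 CP10K and beta cells from 0.0323 to 0.193, with no overlap between the ranges of beta, alpha and delta cells. The delta columns also held PP markers, at 3.80 to 6.62 CP10K against 14.5 to 25.7 in PP cells, and their part in the delta level of Cacna2d3 was not tested.

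Cacna2d2 (chromosome 9, 107276811 to 107406543, plus strand, GRCm39) was in delta cells at 1.93 CP10K (1.51 to 2.44) for WT CON, 1.05 (0.768 to 1.41) for WT FSK, 1.88 (1.49 to 2.33) for WT Ex-4, 1.54 (1.23 to 1.89) for mutant CON, 1.09 (0.850 to 1.38) for mutant FSK and 1.34 (1.05 to 1.68) for mutant Ex-4. It was at most 0.0727 CP10K in beta cells and 0.0630 in alpha cells. The 2 FSK columns were the lowest of the delta cells, where Cacna2d3 was highest. Per kb of span, Cacna2d2 held 17.7% of the alpha2delta level in WT FSK delta cells and 52.3% in WT Ex-4, while Cacna2d3 held 55.0% and 14.6%.

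**Figure D3:**
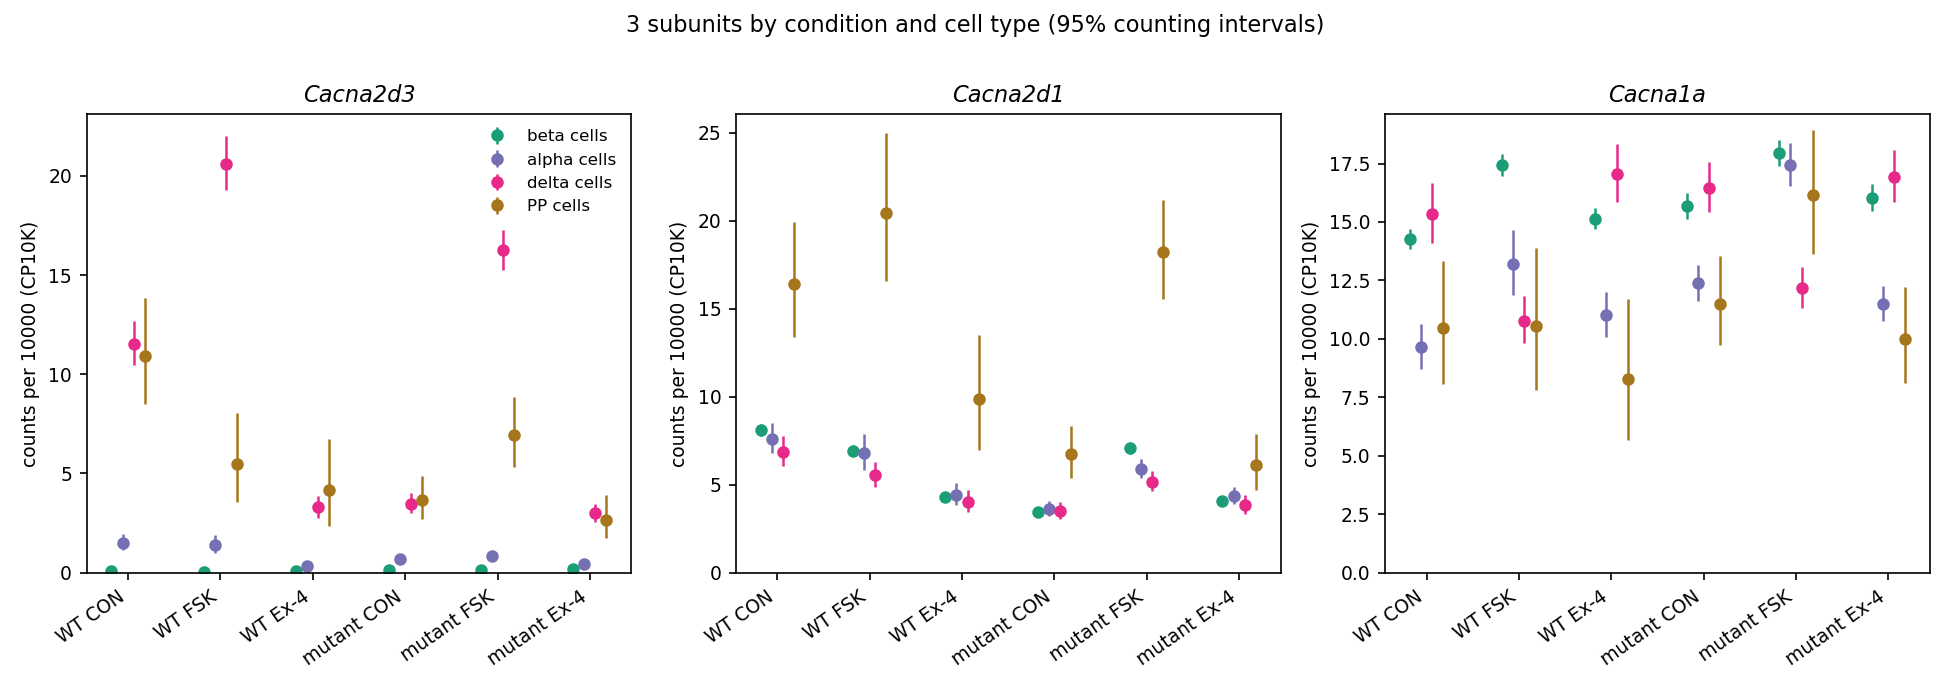
Level in CP10K (vertical axes, from 0) of Cacna2d3, Cacna2d1 and Cacna1a in each condition (horizontal axes), with colours for the 4 endocrine cell types and bars for 95% Poisson intervals. Cacna2d3 in delta cells runs from 2.99 CP10K in mutant Ex-4 to 20.6 in WT FSK, and Cacna1a is lower in delta cells and higher in beta and alpha cells after FSK.

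FSK and Ex-4 raise cAMP, and the transcription factor CREB binds the cAMP response element (CRE). The start regions of the members were therefore searched for the full CRE TGACGTCA and for its half-site TGACG (or CGTCA on the other strand). RefSeq promoters (GRCm38.p6, 250 bases before to 50 after a start) were given for 8 of the 10 members, with 13 starts in all. The full site was in 0 of the 13 and in 1.79% of 32851 promoters of all genes, and the half-site was in 3 of the 13 and in 20.8% of all. A match describes letters in this window and shows no binding. The 250 bases before 4 starts are shown for the members past the fold threshold in the comparisons that follow, with half-sites in capitals, 5′ to 3′ on the strand of the gene. Of the 2 starts of Cacnb2 and the 3 of Cacna1c, those shown are the ones that hold a half-site, and the others hold none. They are Cacna2d3 at chr14:29721865-29722114 (minus strand), Cacna2d1 at chr5:15934441-15934690 (plus strand), the start of Cacnb2 at chr2:14823842-14824091 (plus strand) and that of Cacna1c at chr6:119196410-119196659 (minus strand).
Cacna2d3: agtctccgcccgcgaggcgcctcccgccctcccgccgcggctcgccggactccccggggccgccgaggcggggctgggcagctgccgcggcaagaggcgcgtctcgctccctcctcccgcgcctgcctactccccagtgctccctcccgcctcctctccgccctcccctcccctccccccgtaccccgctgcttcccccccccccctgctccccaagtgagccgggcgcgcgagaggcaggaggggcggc
Cacna2d1: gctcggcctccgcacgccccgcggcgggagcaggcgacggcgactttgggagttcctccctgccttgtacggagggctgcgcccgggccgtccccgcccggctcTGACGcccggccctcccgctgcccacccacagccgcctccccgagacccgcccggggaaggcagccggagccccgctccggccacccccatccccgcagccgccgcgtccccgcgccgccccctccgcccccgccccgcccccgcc
Cacnb2: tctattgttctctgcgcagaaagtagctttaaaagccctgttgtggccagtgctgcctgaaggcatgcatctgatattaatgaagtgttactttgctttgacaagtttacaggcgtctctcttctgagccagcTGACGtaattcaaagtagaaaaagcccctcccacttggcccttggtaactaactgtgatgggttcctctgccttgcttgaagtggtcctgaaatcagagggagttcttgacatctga
Cacna1c: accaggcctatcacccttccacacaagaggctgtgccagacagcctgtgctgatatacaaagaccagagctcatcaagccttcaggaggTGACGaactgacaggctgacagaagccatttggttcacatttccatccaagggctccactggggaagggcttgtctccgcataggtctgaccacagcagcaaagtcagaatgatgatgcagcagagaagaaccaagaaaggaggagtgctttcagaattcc
The window of Cacna2d3, the kept member with the largest FSK difference in delta cells, holds no half-site.

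Conditions were compared as differences of log2(CP10K + 1), and 1.5-fold on this scale (0.58) was the threshold. In each cell type, genes with a mean over its 6 columns at or above the 40th percentile were kept. This kept 7 of the 10 members in beta cells (not Cacna1e, Cacna1h and Cacna2d2), 9 in alpha cells (not Cacna2d2) and 9 in delta cells (not Cacna1e). WT CON is the reference of 3 comparisons and mutant CON enters 3, so these comparisons are not independent of each other.

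In WT beta cells Cacnb2, Cacna2d1 and both L-type pores were lower after Ex-4 than in CON, and Cacna1a was not. Of the 7 kept members, 0 were higher and 2 were lower past 1.5-fold, Cacnb2 by -0.64 (CP10K ratio 0.626, 0.60 to 0.652) and Cacna2d1 by -0.78 (ratio 0.529, 0.494 to 0.566). Over all 10093 kept genes, 0.941% were higher and 2.18% lower. Below the threshold were Cacna1c at -0.49 (ratio 0.704, 0.683 to 0.725) and Cacna1d at -0.38 (ratio 0.753, 0.720 to 0.786), while Cacna1a differed by 0.08. The median difference of the members was -0.38, against 0.03 over all kept genes.

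In mutant beta cells no kept member differed by 1.5-fold between Ex-4 and CON in either direction, where 0.0396% of kept genes were higher and 0.00991% lower. The ratio intervals of Cacna1a, Cacna1c, Cacna1d, Cacnb2 and Cacnb3 all held 1. Cacna2d1 was higher in mutant Ex-4 with a ratio of 1.17 (1.05 to 1.30), the opposite direction to WT. Mutant CON lay at or below the WT Ex-4 level for Cacna1c, Cacna1d, Cacnb2 and Cacna2d1.

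Between genotypes without treatment, mutant beta cells had less of 3 of the 7 kept members past 1.5-fold and more of 0, against 3.86% lower and 1.48% higher over all kept genes. Cacna2d1 differed by -1.02 (ratio 0.429, 0.393 to 0.467), Cacna1c by -0.72 (ratio 0.595, 0.573 to 0.618) and Cacnb2 by -0.65 (ratio 0.619, 0.590 to 0.649). Cacna1d was at -0.51 and Cacna1a at 0.13. Cacnb3 was 2.28 times as high in the mutant (1.48 to 3.57), a difference of 0.19 on the log scale because of its low level.

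FSK in WT beta cells put 0 kept members past 1.5-fold, with 1.52% of kept genes higher and 0.723% lower. Cacna1a was higher at 0.27 (ratio 1.22, 1.17 to 1.27), Cacna1d lower at -0.19 (ratio 0.867, 0.832 to 0.904) and Cacna2d1 lower at -0.20 (ratio 0.857, 0.808 to 0.908). In the mutant, FSK put 2 members higher and 0 lower, where 5.12% of kept genes were higher and 2.7% lower. These were Cacna2d1 at 0.85 (ratio 2.04, 1.86 to 2.23) and Cacnb2 at 0.66 (ratio 1.63, 1.55 to 1.72), with mutant FSK to WT FSK ratios of 1.02 (0.955 to 1.09) and 0.990 (0.952 to 1.03). Cacna1c and Cacna1d were higher in mutant FSK at 0.40 and 0.33 and lower in WT FSK, at -0.12 and -0.19.

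The members called in beta cells are long genes, and long genes as a class differed between the same conditions. Of the 456 kept genes with a span of at least 300 kb, a class taken after the values were seen, 27.2% were lower in WT Ex-4, 36.0% were lower in mutant CON and 33.6% were higher in mutant FSK past 1.5-fold, with medians of -0.32, -0.39 and 0.33. The same class in alpha and delta cells was lower for 33.3% and 35% of its kept genes in WT Ex-4 and for 37.4% and 39.1% in mutant CON. The share of counts from 16 mitochondrial and ribosomal RNA linked genes differed too, from 3.48% in WT CON and 2.83% in WT FSK to 9.23% in WT Ex-4, 12% in mutant CON and 14.9% in mutant Ex-4, with 2.77% in mutant FSK. So did the 12 beta markers, at 105 CP10K in WT CON, 106 in WT FSK, 78.9 in WT Ex-4, 66.9 in mutant CON, 96.0 in mutant FSK and 68.4 in mutant Ex-4. With a smooth trend on gene length taken out, Cacna2d1 stood at -0.46 in WT Ex-4, -0.61 in mutant CON and 0.54 in mutant FSK, and Cacnb2 at -0.33, -0.26 and 0.36. Cacna1c was then at -0.10, -0.24 and 0.05, and Cacna1a turned from 0.18 to -0.09 in mutant FSK but stayed at 0.27 in WT FSK. The short gene Cacnb3 went from 0.18, 0.19 and -0.25 in WT Ex-4, mutant CON and mutant FSK to 0.08, 0.11 and -0.16. The part of RNA quality, length and beta cell state in these differences was not tested.

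**Figure D4:**
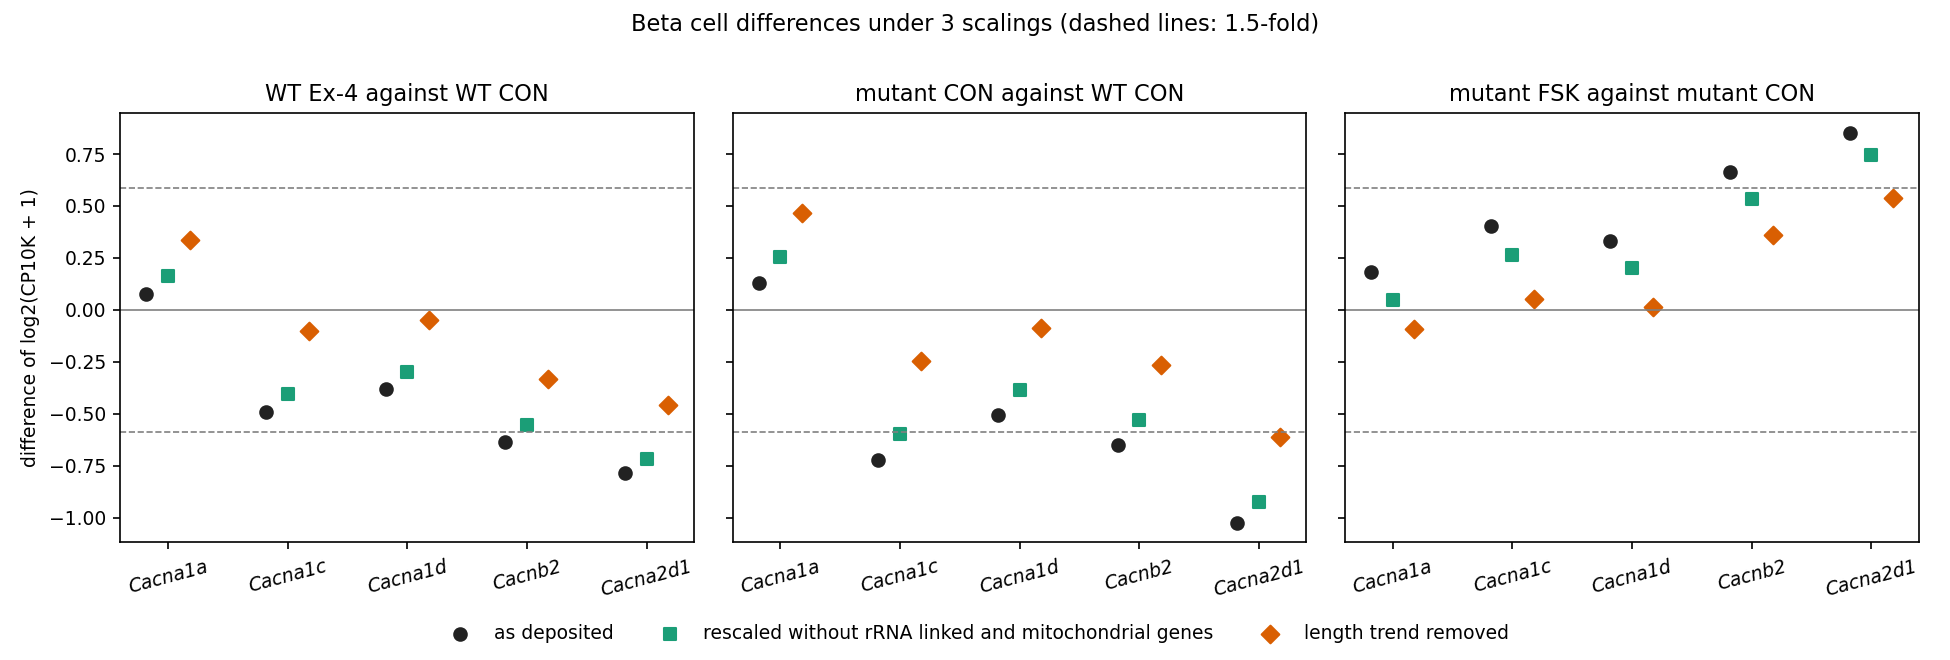
Differences of log2(CP10K + 1) in beta cells (vertical axis) for 5 subunits in 3 comparisons, from the columns as deposited, with columns rescaled without mitochondrial and ribosomal RNA linked genes, and with the trend on gene length removed. Cacna2d1 keeps its direction under all 3 scalings in each of these comparisons, while Cacna1a changes sign in mutant FSK from 0.18 to -0.09.

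Cacnb2 and Cacna2d1 were lower in alpha cells too after Ex-4 in WT and in mutant CON. In WT Ex-4 alpha cells 0 of 9 kept members were higher and 3 were lower past 1.5-fold, against 1.71% and 4.02% of the 9487 kept genes, namely Cacna2d3 at -0.89 (ratio 0.236, 0.127 to 0.413), Cacna2d1 at -0.66 and Cacnb2 at -0.66. Between the untreated genotypes 0 were higher and 2 lower, against 1.94% and 5.44%, with Cacna2d1 at -0.90 (ratio 0.475, 0.404 to 0.559) and Cacnb2 at -0.64. Cacna2d3 lay just short of the threshold there, at -0.58. FSK put 0 members past it in WT, where 1.34% of kept genes were higher and 1.17% lower, and 0 in the mutant, where 3.13% were higher and 0.885% lower. The nearest in the mutant were Cacna2d1 at 0.58 and Cacna1c at 0.53, and Cacna1a was at 0.42 in WT and 0.46 in the mutant. With the length trend removed none of these alpha calls held, with Cacna2d3 at -0.44, Cacna2d1 at -0.32 and Cacnb2 at -0.33 in WT Ex-4, and Cacna2d1 at -0.51 and Cacnb2 at -0.27 in mutant CON. The 8 alpha markers summed to 119 CP10K in WT CON against 51.6 in WT Ex-4 and 50.2 in mutant CON, and the mitochondrial and ribosomal RNA linked share was 3.98%, 12.5% and 13.5%. Beta markers in the alpha columns summed to 37.9 CP10K in WT CON and 15.7 to 23.7 in the other 5, and the part of any of these in the alpha values was not tested.

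In delta cells Cacna2d3 had the largest difference of the kept members in each of the 4 comparisons that follow. After Ex-4 in WT 0 of 9 kept members were higher and 2 lower, against 1.74% and 3.32% of the 9256 kept genes, with Cacna2d3 at -1.55 (ratio 0.285, 0.234 to 0.346) and Cacna2d1 at -0.65. Between the untreated genotypes 0 were higher and 3 lower, against 2.27% and 4.79%, with Cacna2d3 at -1.48 (ratio 0.302, 0.253 to 0.358), Cacna2d1 at -0.80 and Cacnb2 at -0.62. After FSK in WT 1 was higher and 1 lower, against 2.45% and 2.33%, namely Cacna2d3 at 0.79 (ratio 1.79, 1.59 to 2.01) and Cacna1c at -0.63 (ratio 0.624, 0.547 to 0.711), with Cacna1h just short of the threshold at 0.58. After FSK in the mutant 2 were higher and 0 lower, against 5.47% and 2.44%, with Cacna2d3 at 1.95 (ratio 4.67, 4.01 to 5.47) and Cacnb2 at 0.60. With the length trend removed Cacna2d3 was at -1.05, -0.91, 0.88 and 1.73 in these 4 comparisons, past the threshold in each. The other calls of delta cells ended, with Cacna2d1 at -0.29 in WT Ex-4 and -0.37 in mutant CON, Cacnb2 at -0.22 in mutant CON and 0.41 in mutant FSK, and Cacna1c at -0.55 in WT FSK. In mutant delta cells Ex-4 against CON gave Cacna2d3 a ratio of 0.858 (0.694 to 1.06), an interval that held 1.

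Other values of the delta columns went with Cacna2d3 in part. The 5 neural and Schwann markers, among them the synaptic genes Snap25 and Syt1 that endocrine cells also express, summed to 15.8 CP10K in WT CON and 20.4 in WT FSK, to 7.57 in WT Ex-4 and 5.90 in mutant CON, and to 13.3 in mutant FSK and 6.95 in mutant Ex-4. The delta markers summed to 5.41 CP10K in WT CON against 9.75 in WT FSK, and to 4.50 in mutant CON against 7.79 in mutant FSK. The mitochondrial and ribosomal RNA linked share ran from 2.19% in WT FSK to 14.5% in mutant Ex-4. The columns labelled neurons held 2.23 CP10K of Cacna2d3 over all conditions, on 1 to 12 counts each. They ran from 0.493 CP10K in mutant FSK to 8.89 in WT CON. The WT CON value lay above the delta values of mutant CON and of both Ex-4 columns. The part of these in the delta differences was not tested.

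**Figure D5:**
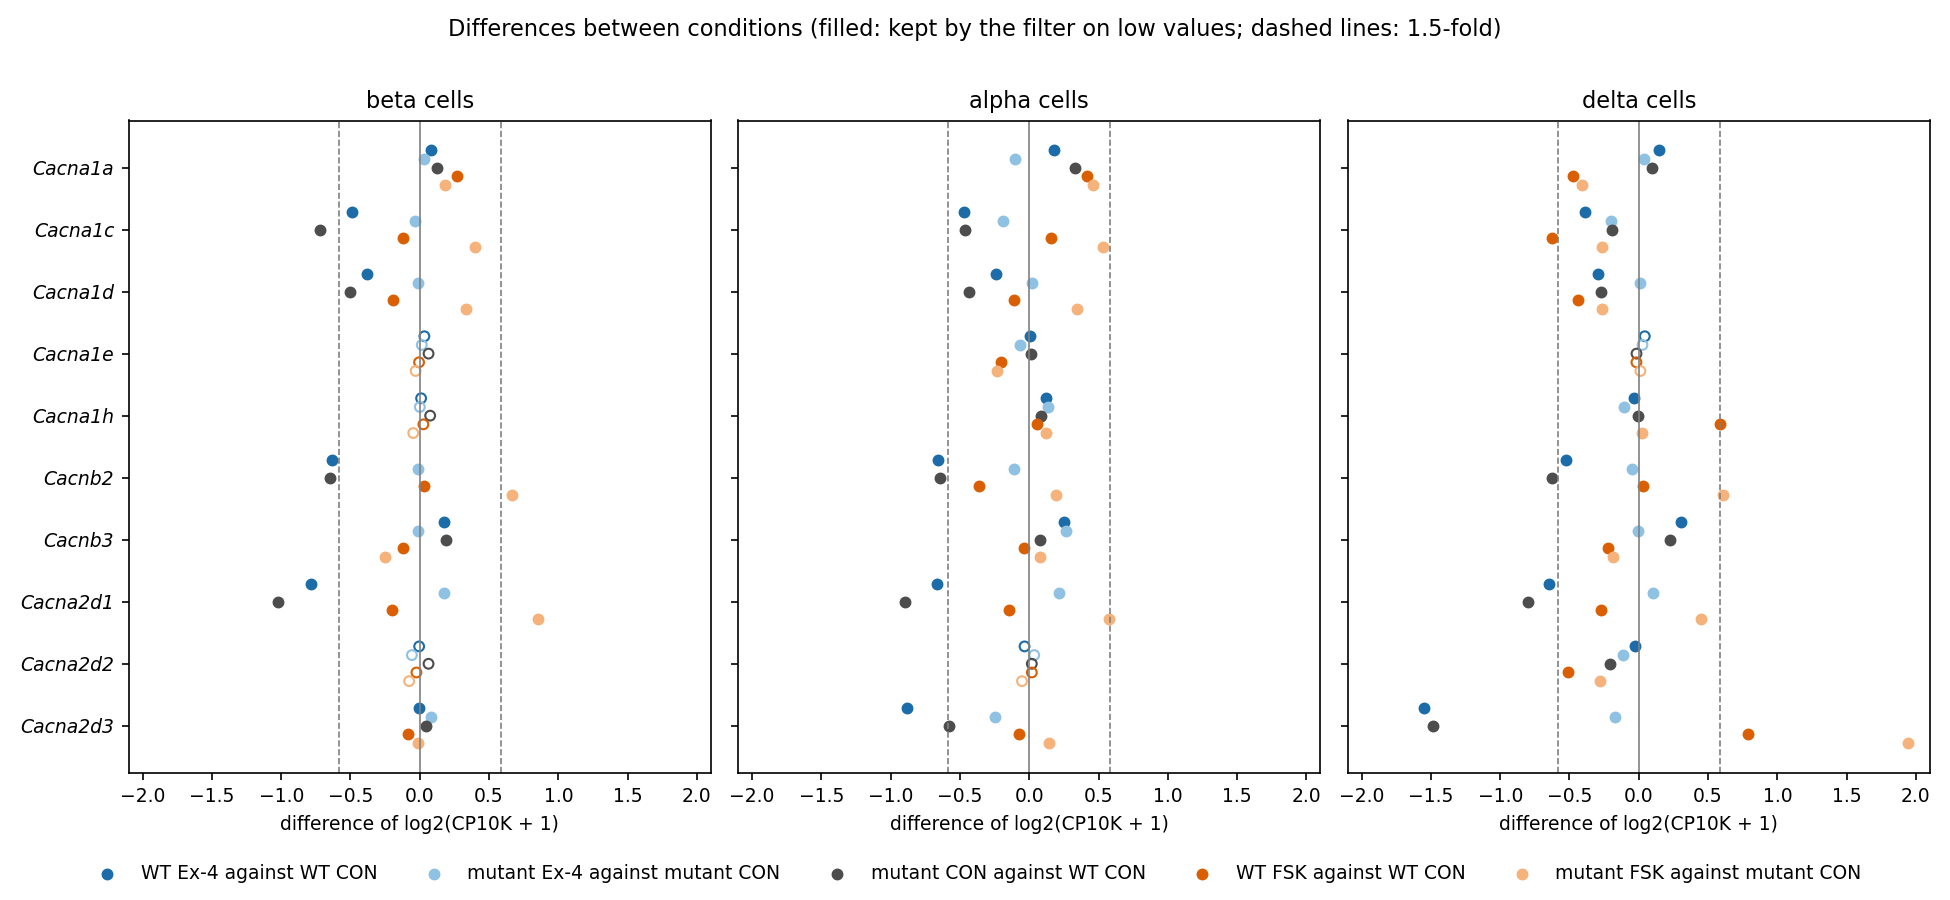
Difference of log2(CP10K + 1) (horizontal axes) of each subunit for 5 comparisons of conditions in beta, alpha and delta cells, with filled points for genes kept by the filter on low values, open points for the others and dashed lines at 1.5-fold. Cacna2d3 in delta cells lies farthest from 0, with a difference of -1.55 between WT Ex-4 and WT CON and of 1.95 between mutant FSK and mutant CON.

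Of the alpha1 genes, Cacna1a, Cacna1c and Cacna1d were lower in delta cells after FSK, while Cacna1h was not. In WT, Cacna1a was at -0.47, Cacna1c at -0.63 and Cacna1d at -0.44 in delta cells, and in the mutant at -0.41, -0.27 and -0.26, with all 6 ratio intervals below 1 and the same sign with the length trend removed. In WT beta cells Cacna1c and Cacna1d were lower as well, at -0.12 and -0.19, and Cacna1a was higher. The summed beta markers in the delta columns were 20.0 CP10K in WT CON against 8.82 in WT FSK, and 13.4 in mutant CON against 11.4 in mutant FSK. Cacna1c and Cacna1d are higher in beta than in delta cells, and the part of beta cell RNA in their delta values was not tested.

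The genes whose log values over the 18 beta, alpha and delta columns were most like those of a member, among 8560 genes kept in all 3 cell types, were named by Pearson's r as a description of columns that share conditions and depth. For Cacna2d3 they were Slc4a4, a sodium bicarbonate cotransporter (0.986), Rgs20 (0.981) and Dock1 (0.980). For Cacnb2 the first was Kansl1 (0.985), for Cacna1c Rcan2 (0.973), and for Cacna2d1 Mllt3 (0.950). Cacna1a had no close counterpart, its best being Rcan3 (0.803), and Cacnb3 was most like Ucp2 (0.915). Between members, Cacna1c and Cacna2d3 had the most negative value, -0.758.

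Other genes of calcium entry and handling were counted in beta cells from lists. Of 16 other voltage-gated calcium channel genes 11 were in the table, 3 were kept, and 0 passed 1.5-fold in any of the 5 comparisons. Among 10 kept regulators and partners of the channels, Hap1 and Unc80 passed 1.5-fold. Hap1, a huntingtin partner that binds trafficking motors, was higher in WT Ex-4 (3.47 to 7.12 CP10K), in mutant CON (9.71) and in WT FSK (6.04). In the mutant, Hap1 was lower after FSK, at 6.26 CP10K against 9.71, a difference of -0.56 just short of the threshold. Unc80, a partner of the sodium leak channel, was lower in mutant FSK (7.72 to 4.16). Of 34 kept genes of intracellular calcium handling, 1 was higher and 1 lower in WT Ex-4, 1 and 2 in mutant CON, 2 and 2 in WT FSK, 4 and 3 in mutant FSK, and 0 in mutant Ex-4. Over all kept beta genes the shares higher and lower were 0.941% and 2.18% in WT Ex-4, 1.48% and 3.86% in mutant CON, 1.52% and 0.723% in WT FSK, and 5.12% and 2.7% in mutant FSK. Slc8a1, the sodium calcium exchanger that removes calcium, stood at 8.13 CP10K in WT CON and 4.45 in WT Ex-4, and at 3.97 in mutant CON and 11.8 in mutant FSK. Itpr1, a calcium release channel of the endoplasmic reticulum, was lower after FSK in WT (4.38 to 1.63 CP10K) and in the mutant (3.38 to 1.32). Mcu, the pore of the mitochondrial calcium uniporter, was higher after FSK in both (1.24 to 2.68 and 0.654 to 2.34). Of 4 kept voltage-gated sodium channel genes only Scn3a, a pore-forming subunit, passed the threshold, and only after FSK, from 0.750 to 4.98 CP10K in WT and from 0.732 to 4.65 in the mutant.

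Outside the endocrine cells Cacna1c was highest in the column labelled muscle cells, at 37.1 CP10K (35 to 39.3) over all conditions, where L-type channels drive contraction. Cacna2d1 and Cacnb2 were 7.06 and 7.03 CP10K there. Macrophages held 5.19 CP10K of Cacna1c (4.20 to 6.35), 3.01 of Cacna1a, 3.28 of Cacna1d, 3.33 of Cacnb2, 0.656 of Cacna2d1 and 0.383 of Cacna2d3, on columns of 14604 to 48223 counts. For the first 5 every beta column lay above the upper bound of the macrophage interval, and every beta column of Cacna2d3 lay below its macrophage value.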

How the data were processed

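The deposited table holds natural log values, made by the authors as ln(1 + 10000 times the count of a gene over the total of its column), for 17362 genes in 54 columns, 1 for each of 6 conditions and 9 labelled cell types. Islets were cultured, and their nuclei were sorted and barcoded by split-pool ligation over 8 sublibraries that each hold all 6 conditions. Reads were processed on mm39. Nuclei in the lowest and highest 15% of counts or genes, or over 1% mitochondrial reads, had been removed, samples integrated and each set to 2500 nuclei. Whether the pooled counts are raw or corrected for depth, the annotation release and the use of strand are not given in the sources used here. Cacna1c, Cacna1d, Cacna1h and Cacna2d3 overlap other coding genes, whose reads could be shared with them.

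Counts were recovered by inverting the deposited values. The largest distance from a whole number was 6.39e-05, under a tolerance of 0.001. No count model was fitted, since each condition is 1 pool. Intervals are exact Poisson 95% intervals, and ratio intervals are exact conditional binomial ones. Differences are of log2(CP10K + 1), which understates the change of low genes. The lowest level that was kept was the 40th percentile of genes above 0 (a mean of 0.0598 CP10K in beta, 0.0821 in alpha and 0.0875 in delta cells). Alternatives were other pseudocounts, no filter and the 75th percentile, a 2-fold threshold, the median difference set to 0, columns rescaled without 16 mitochondrial and ribosomal RNA linked genes, and a lowess trend (span 0.3) on gene length removed. Gene positions came from GENCODE on GRCm39, and 16531 genes matched 1 entry. Promoters came from RefSeq on GRCm38.p6. No promoter entry matched Cacna1a or Cacna1h. Calculations used scipy 1.17.1 and numpy 2.4.6 for intervals, statsmodels 0.14.6 for the lowess, pandas 2.3.3 for tables and matplotlib 3.10.9 for figures (Python 3.11.15), and were tested on simulated data.

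The members and the gene lists were chosen with earlier results of these data known. All 10 members are named. Of the other lists, the genes named come from up to 3 in each direction past 1.5-fold in beta cells. These were taken from the upper 50% of kept genes by mean. Camk1d, Ppp3ca, Camk2d, Itpr2 and Itpr3 met the same rule and are not described above. For Camk1d the log2 differences in beta cells were 1.37 after Ex-4 in WT and 1.51 between the untreated genotypes. After FSK in the mutant its difference was -1.92. Conditions follow the labels of the columns.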

Additional observations from a re-analysis of the deposited data

Results flagged for a closer look

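Differences that pointed opposite ways in 2 cell types or genotypes, with each ratio interval apart from 1, were singled out. Each value is the first log2 difference minus the second, and none of these differences was tested, because each condition is 1 pool.

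After FSK, Cacna1a was higher in beta and alpha cells and lower in delta cells, with gaps of 0.74 (beta minus delta) and 0.89 (alpha minus delta) in WT, and with 0.59 and 0.87 for these pairs in mutant islets. In beta cells of the mutant its direction depended on the scaling, at 0.18 as deposited and -0.09 with the length trend removed. Cacna1c after FSK gave -0.28 for beta minus alpha and 0.79 for alpha minus delta in WT, and 0.67 for beta minus delta and 0.80 for alpha minus delta in the mutant. Cacna1d after FSK in the mutant gave 0.59 for beta minus delta and 0.61 for alpha minus delta. Cacna2d3 after FSK in WT gave -0.87 for beta minus delta, with beta levels of at most 0.193 CP10K.

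Between genotypes, the FSK difference in WT minus that in the mutant was -0.52 for Cacna1c and -0.52 for Cacna1d in beta cells, -0.56 for Cacnb2 in alpha cells, and -1.05 in beta cells and -0.72 in delta cells for Cacna2d1. The Ex-4 difference of Cacna2d1 in WT minus that in the mutant was -0.96 in beta cells and -0.88 in alpha cells. With the length trend removed, the FSK differences of beta cells in WT and the mutant were -0.13 and 0.05 for Cacna1c. They were -0.20 and 0.01 for Cacna1d, so both gaps shrank by more than 1.5 times. For Cacnb2 in alpha cells the FSK differences were then -0.28 in WT and 0.004 in the mutant. For Cacna2d1 those of FSK in WT and the mutant were -0.20 and 0.54 in beta cells, and -0.21 and 0.25 in delta cells. Its Ex-4 differences were -0.46 and 0.17 in beta cells, and -0.32 and 0.24 in alpha cells. Each of its gaps was thus smaller as well. These gaps include the difference between the 2 CON columns.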

How the results depend on the processing

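Of 240 counts of members past the threshold under an alternative, 191 stayed within 1.5 times the reported count and 49 did not, and no member past the threshold changed sign. Counts are given as reported, then under the alternative. At a 2-fold threshold the lower members went from 2 to 0 (WT Ex-4) and 3 to 1 (mutant CON) in beta cells, 3 to 0 and 2 to 0 in alpha cells, and 2 to 1 and 3 to 1 in delta cells. The higher members in mutant FSK went from 2 to 0 in beta and 2 to 1 in delta cells, and in WT FSK delta cells both went from 1 to 0. With rescaled columns the lower members became 1 in WT Ex-4 in beta, alpha and delta cells and 1 in mutant CON alpha cells, and the higher members in mutant FSK became 1 in beta and delta cells. With the length trend removed the lower members in WT Ex-4 became 0, 0 and 1 and in mutant CON 1, 0 and 1 in beta, alpha and delta cells, and those higher in mutant FSK became 0 in beta and 1 in delta cells. The trend also gave 1 higher member in mutant CON alpha cells, 0 lower in WT FSK delta cells and 1 lower in mutant FSK delta cells. Setting the median difference to 0 gave 2 higher in WT FSK delta cells. The larger linear pseudocount gave 1 lower in mutant FSK beta cells, 1 higher in mutant FSK alpha cells, and 2 higher and 2 lower in WT FSK delta cells. The smaller pseudocount, which lets genes of few counts pass, gave 1 or 2 extra calls in most comparisons, with 2 lower in WT FSK beta cells, 2 higher and 1 lower in mutant Ex-4 alpha cells, and 3 lower in WT FSK delta cells. Filters on low values changed none of the counts by more than 1.5 times. Over all kept genes in beta cells, those higher and lower were 95 and 220 in WT Ex-4, 142 and 171 rescaled, and 94 and 60 with the length trend removed. They were 149 and 390 in mutant CON (233 and 292, then 204 and 136) and 517 and 273 in mutant FSK (435 and 387, then 333 and 279). In alpha cells they were 162 and 381 in WT Ex-4 (262 and 309, then 168 and 185), 184 and 516 in mutant CON (278 and 431, then 221 and 252), 297 and 84 in mutant FSK (250 and 146, then 197 and 122) and 127 and 111 in WT FSK (148 and 71 with the trend removed). In delta cells they were 161 and 307 in WT Ex-4 (216 and 246, then 130 and 121), 210 and 443 in mutant CON (314 and 377, then 223 and 174) and 506 and 226 in mutant FSK (422 and 324, then 334 and 271). With the larger linear pseudocount the beta cell counts were 498 and 484 in WT Ex-4, 566 and 932 in mutant CON, 320 and 300 in WT FSK (153 and 73 as reported) and 1101 and 929 in mutant FSK, and with the smaller one 2724 and 1234, 2535 and 2221, 698 and 3328, and 2210 and 3207. The cause was not tested. Leaving out a replicate could not be done, with 1 pool for each condition. No paired analysis was possible because the columns carry no replicate number. Depth limits Cacna1e, Cacnb3 and all PP values most.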
